A study of Mus musculus with 20 samples.

Results

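The transcripts of 7 synaptotagmin genes (*Syt1*, *Syt2*, *Syt3*, *Syt4*, *Syt7*, *Syt9* and *Syt11*) and 3 SV2 genes (*Sv2a*, *Sv2b* and *Sv2c*) were examined in the mouse cochlea. These 10 genes were taken by name from a table of 24411 genes, and all 10 were present in every table. No measured value entered the choice, although earlier results of these data were known when it was made.

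The RNA came from the apical coil of the cochlea, dissected as sensory epithelium together with spiral ganglion neurons, at postnatal day 7 (P7) or 22 (P22). Each library was a pool of 4 C57BL/6N mice. All mice carried the tm2b allele of *Adgrb1*, the gene for the adhesion receptor BAI1: *Bai1*tm2b/+ mice (Het) carried it on 1 chromosome and served as controls, *Bai1*tm2b/tm2b mice (Homo) on both, and no wild-type group was sequenced. The allele lacks exons 3 and 4 and carries a lacZ cassette in every cell, so it is not limited to neurons. The 20 libraries fell into 3 sets that were analyzed apart: P22 with 3 libraries per genotype in estimated counts, P7 replicates 5 to 7 with 3 per genotype in estimated counts, and P7 replicates 1 to 4 with 4 per genotype in values that behave as rounded TPM, transcript levels per length scaled to a fixed total.

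Synaptotagmins are vesicle proteins with a pair of C2 domains, many of which bind Ca2+ and so couple its entry to vesicle fusion. *Syt1*, *Syt2* and *Syt9* are fast sensors of release, *Syt7* and *Syt3* bind Ca2+ with higher affinity and act in slower release and vesicle supply, and *Syt4* and *Syt11* lack a residue needed for Ca2+ binding in a C2 domain. The SV2 proteins are vesicle membrane glycoproteins that resemble transporters, bind synaptotagmin and aid the priming of vesicles. At the mature inner hair cell synapse fusion depends on otoferlin, another C2 domain protein, whereas spiral ganglion neurons use the classical machinery at their terminals in the brainstem.

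In GRCm38 (mm10), GENCODE places *Syt1* (ENSMUSG00000035864.14) at chr10:108497650-109010982 on the minus strand, *Syt2* (ENSMUSG00000026452.15) at chr1:134646677-134762593 on the plus strand and *Sv2c* (ENSMUSG00000051111.16) at chr13:95954594-96132577 on the minus strand. *Sv2a* lies at chr3:96181151-96195521 (plus), *Syt11* at chr3:88744700-88775164 (minus), *Syt3* at chr7:44384102-44400187 (plus), *Syt9* at chr7:107370728-107548656 (plus), *Sv2b* at chr7:75114894-75309262 (minus) and *Syt7* at chr19:10389090-10453180 (plus). None shares exon bases with another gene on its own strand. Genes on the opposite strand cover 14.5% of the exon bases of *Syt4*, 5.13% of those of *Syt7* and 0.561% of those of *Sv2b*, and it is not stated whether the counting used strand.

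The stretches just upstream of the first RefSeq start (GRCm38.p6), outside annotated exons, are shown for the 3 genes on which most results below turn, 1 that fell and 2 that rose between the ages. They are written 5′ to 3′ on the strand of the gene, with each GC box (GGGCGG on either strand) in capitals. They lie at chr10:109010983-109011225 for *Syt1*, chr1:134646362-134646611 for *Syt2* and chr13:96132578-96132827 for *Sv2c*.
Syt1: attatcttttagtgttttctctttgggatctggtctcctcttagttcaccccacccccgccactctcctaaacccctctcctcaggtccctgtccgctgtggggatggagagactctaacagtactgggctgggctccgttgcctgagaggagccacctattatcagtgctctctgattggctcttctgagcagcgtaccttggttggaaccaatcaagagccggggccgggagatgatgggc
Syt2: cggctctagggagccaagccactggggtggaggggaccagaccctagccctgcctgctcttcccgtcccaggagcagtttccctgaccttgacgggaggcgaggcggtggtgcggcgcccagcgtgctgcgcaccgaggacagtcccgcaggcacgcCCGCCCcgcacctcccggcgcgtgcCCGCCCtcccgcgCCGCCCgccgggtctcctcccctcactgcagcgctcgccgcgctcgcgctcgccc
Sv2c: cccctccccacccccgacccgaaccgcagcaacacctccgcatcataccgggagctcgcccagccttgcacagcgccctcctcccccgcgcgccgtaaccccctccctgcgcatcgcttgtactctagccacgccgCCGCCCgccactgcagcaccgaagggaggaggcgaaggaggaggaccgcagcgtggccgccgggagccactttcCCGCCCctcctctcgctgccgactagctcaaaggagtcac
The 243 bases of *Syt1* hold none of the motifs searched, whereas the 250 bases of *Syt2* and of *Sv2c* hold GC boxes. Of 32851 RefSeq promoters cut to the 250 bases before the start, 32.7% hold a GC box, 12.4% a TATAAA, 6.02% a CACGTG and 1.55% a TGACGTCA on either strand, and none of the last 3 is in the stretches shown. Over the full 250 bases before the start there were 8 CpG sites for *Syt1*, 30 for *Syt2* and 26 for *Sv2c*, beside a median of 6 over all promoters. Other genes that rose differed: *Sv2a* had a GC box (13 CpG sites), whereas *Syt3* (8) and the first start of *Sv2b* (7) had none. *Syt9*, not called between ages in Het libraries, had a GC box and 40 CpG sites. A link between these features and age was not tested.

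Libraries summed to 35725985 to 40350413 estimated counts at P22 and 31108551 to 58807173 for P7 replicates 5 to 7. For P7 replicates 1 to 4 the read depth is unknown. *Adgrb1* itself was lower in Homo libraries at P22 (142 ± 7.34 CPM in Het and 93.3 ± 2.51 in Homo, SD, n = 3 each). CPM are counts scaled to a common library size. In P7 replicates 5 to 7 it had 35.5 to 61.5 CPM in Het and 23.8 to 34.3 CPM in Homo libraries. That gap was narrow, and 4.64% of all genes tested in this set lay lower in Homo without overlap. In P7 replicates 1 to 4 *Adgrb1* did not separate the genotypes, at 9.25 ± 2.22 TPM in Het and 10 ± 1.41 in Homo (SD, n = 4). In replicates 1 to 4 the gene's own level therefore does not check the labels. Values per gene sum transcripts with and without exons 3 and 4. Defining markers of hair cells, neurons and Schwann cells were present in every set (*Myo7a* at 39.1 CPM or more and *Nefl* at 1709 CPM or more in every P22 library).

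At P22, 3 of the 10 genes were called lower in Homo libraries (*Sv2c*, *Syt2* and *Syt1*) and 0 were called higher, beside shares of 1.41% (lower) and 1.74% (higher) among the 15443 genes tested. A call needed a Benjamini-Hochberg adjusted p under 0.05 in edgeR's quasi-likelihood test, a log2 fold change beyond 0.5 in either direction and a standard error (SE) under 0.5. The log2 fold change, given throughout as Homo minus Het, was negative for 9 of the 10 genes. Its median was -0.25 over the 10 genes and 0.01 over all genes tested. All 3 Homo libraries lay below all 3 Het libraries for 6 of the 10 genes, and this was so for 17.9% of all genes tested.

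**Figure D1:**
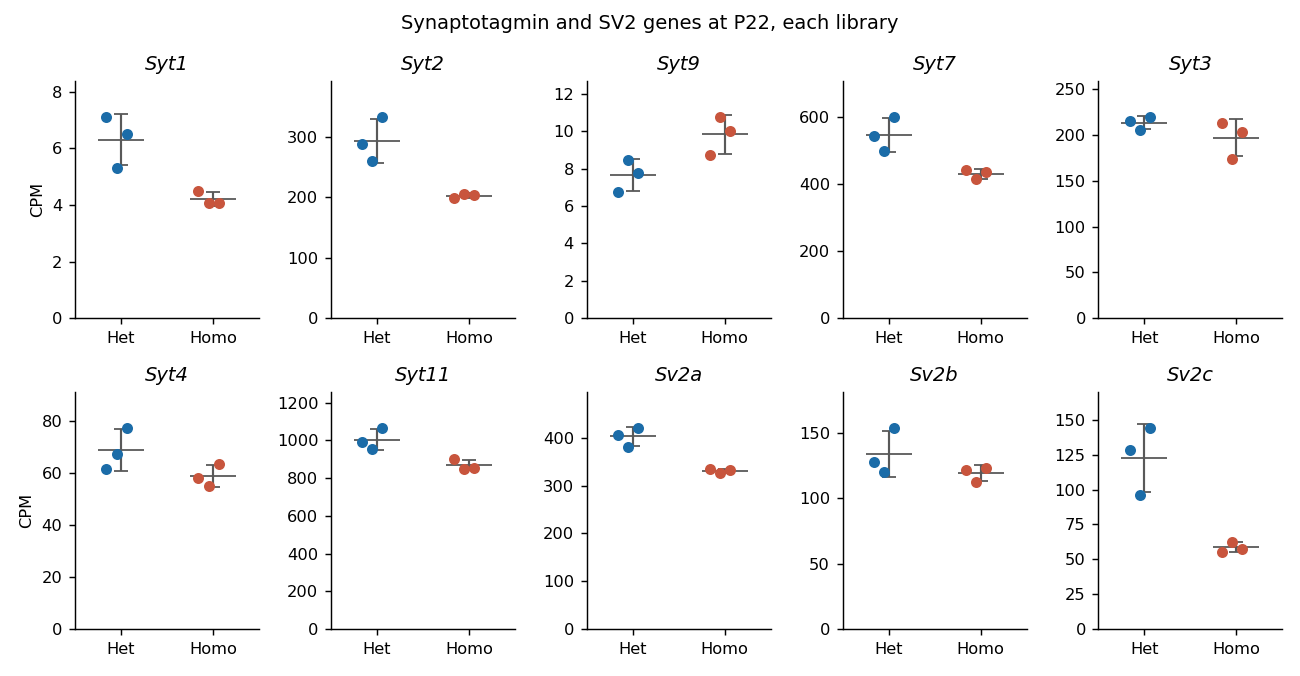
Normalized counts (CPM, linear axis from 0) of the 10 genes in each P22 library, with Het in blue and Homo in red; horizontal lines are group means and bars the SD (n = 3 libraries each). *Sv2c* lies at 96.3 to 144 CPM in Het and 55.5 to 62.6 CPM in Homo libraries, and *Syt9* alone lies higher in Homo.

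Of the fast Ca2+ sensors, *Syt2* was the abundant one at P22. Its counts were 289, 260 and 333 CPM in Het libraries 1, 2 and 3 and 199, 206 and 203 CPM in Homo libraries 1, 2 and 3. The Homo libraries were close to each other and all below the lowest Het library, and the log2 fold change was -0.53 (SE 0.08, edgeR adjusted p = 0.00417). Without Het replicate 3, the highest library, the change of *Syt2* was -0.44 and fell short of the fold limit (edgeR adjusted p = 0.00741).

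*Syt1*, the best known sensor of the forebrain, had the lowest mean level of the genes examined at P22 in either genotype. It had 7.10, 5.32 and 6.49 CPM in Het libraries and 4.49, 4.06 and 4.06 CPM in Homo libraries, which rest on 160 to 256 estimated counts per library. The genotypes did not overlap, and the log2 fold change was -0.58 (SE 0.15, edgeR adjusted p = 0.03275). The call of *Syt1* depended on single libraries: it was lost without Het replicate 1 or 3 or without any of the 3 Homo libraries, with changes of *Syt1* between -0.49 and -0.69 over the 6 fits and adjusted p values (edgeR) up to 0.137.

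*Syt9*, the remaining fast sensor, was the only one of the 10 genes with a positive change. It had 6.77, 8.46 and 7.74 CPM in Het libraries and 8.71, 10.7 and 10.01 CPM in Homo libraries. All Homo libraries lay above all Het libraries, which was so for 15.8% of all genes, but the log2 fold change of 0.36 (SE 0.13, edgeR adjusted p = 0.0954) did not pass.

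*Syt7*, a sensor for delayed release and vesicle supply, had 546, 499.5 and 601 CPM in Het libraries and 443, 416 and 437 CPM in Homo libraries at P22. The groups did not overlap and the adjusted p passed (edgeR, 0.0130), but the log2 fold change of -0.34 (SE 0.07) was under the fold limit. *Syt3* overlapped between genotypes, at 205 to 219 CPM in Het and 174 to 213 CPM in Homo libraries (log2 fold change -0.11, SE 0.07, edgeR adjusted p = 0.341).

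*Syt11*, linked to vesicle recycling and the most abundant of the 10 genes, had 993, 955 and 1066 CPM in Het libraries and 899, 850 and 854 CPM in Homo libraries. Its log2 fold change was -0.21 (SE 0.06, edgeR adjusted p = 0.0502), just short of the threshold. *Syt4*, found on dense-core vesicles as well as synaptic ones, ranged from 61.7 to 77.5 CPM in Het and from 55.0 to 63.5 CPM in Homo libraries, which overlapped (log2 fold change -0.23, SE 0.09, edgeR adjusted p = 0.119).

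Among the SV2 genes, *Sv2c* changed most. It had 128, 96.3 and 144 CPM in Het libraries and 55.5, 62.6 and 57.7 CPM in Homo libraries. Even the lowest Het library stood well above the highest Homo library, and the log2 fold change was -1.07 (SE 0.12, edgeR adjusted p = 0.00125). *Sv2c* stayed called in each of the 6 fits that left out 1 library, with changes between -1.22 and -0.94.

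*Sv2a*, the SV2 protein found at most synapses and the target of the drug levetiracetam, had 407, 382 and 421 CPM in Het libraries and 334, 327 and 333 CPM in Homo libraries. The groups did not overlap and the adjusted p passed (edgeR, 0.0109), with a log2 fold change of -0.28 (SE 0.06) under the fold limit. *Sv2b* overlapped between genotypes at 120 to 154 CPM in Het and 112 to 123 CPM in Homo libraries (log2 fold change -0.17, SE 0.09, edgeR adjusted p = 0.230).

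These genes moved alongside the markers of neurons. The summed level of 14 neuron markers was 8960 to 10098 CPM in Het and 7112 to 7910 CPM in Homo libraries at P22. Of these markers 12 had a negative change, with a median of -0.18, and 1 was called lower (*Ina*, an intermediate filament protein, -0.59, SE 0.07, edgeR adjusted p = 0.00155). Markers of hair cells and central glia lay the other way: 13 hair cell markers summed to 407 to 427 CPM in Het and 525 to 580 CPM in Homo libraries, with 3 called higher, and 10 central glia markers to 914 to 1043 and 1194 to 1801 CPM, with 5 called higher. The 10 Schwann cell markers were split, 5 positive and 5 negative between -0.94 and 0.54, with a median of -0.0030 and 1 called higher (*Mbp*, a myelin protein, 0.54), and their sums of 18812 to 19982 and 19886 to 23269 CPM overlapped. Of 12 brain neuron markers, 9 were tested and 0 were called by edgeR (the list reached 2 at an adjusted p under 0.05, 1 each way), with sums of 185 to 208 and 191 to 215 CPM. In bulk tissue, fewer cells of a type and less RNA per cell cannot be told apart, and the part of these shifts in the results was not tested.

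Libraries were also scaled to the summed neuron markers instead of by TMM, a plain sum in which the most abundant markers weigh most. The median over all genes at P22 then moved to 0.36. By edgeR 3407 genes (22.1%) were called higher and 41 (0.265%) lower, in place of 268 and 218. On that scale *Sv2c* was still called lower, at -0.70 (edgeR adjusted p = 0.00133), and *Syt9* became called higher, at 0.71 (edgeR adjusted p = 0.00455). *Syt2* (-0.18, edgeR adjusted p = 0.0624) and *Syt1* (-0.23, edgeR adjusted p = 0.221) were then not called. *Sv2a*, *Sv2b*, *Syt3*, *Syt4*, *Syt7* and *Syt11* turned from negative to positive values between 0.01 and 0.23, all of them below the median of all genes on this scale.

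Within a library, the ratio of 2 related genes does not depend on scaling. The log2 ratio of *Sv2c* to *Sv2a* counts at P22 was -1.73 ± 0.23 in Het and -2.50 ± 0.11 in Homo libraries (SD, n = 3), a difference of -0.77 without overlap. The ratio of *Syt9* to *Syt1* was 0.28 ± 0.37 in Het and 1.21 ± 0.23 in Homo libraries, also without overlap. That of *Syt7* to *Syt1* was 6.44 ± 0.16 in Het and 6.68 ± 0.06 in Homo libraries, again without overlap. Each of these differences had p = 0.1 in the exact 2-sided permutation test, the smallest that 3 libraries against 3 allow, and adjusted p = 0.2 over the 6 ratios examined. By contrast, the ratio of *Syt2* to *Syt1* overlapped between genotypes, with a difference of 0.05 (exact permutation p = 0.7). The ratios of *Syt4* to *Syt11* and of *Sv2b* to *Sv2a* overlapped as well.

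Other vesicle genes were counted from lists by role, of which 81 genes were tested at P22. The 2 called lower were both in the list of 21 SNARE and release genes and included *Rims1*, an active zone scaffold that gathers Ca2+ channels (-0.67, SE 0.12, edgeR adjusted p = 0.00684). Of 23 other vesicle proteins 0 were called by edgeR and 12 were lower by the adjusted p alone, and of 20 endocytosis genes 0 were called and 10 were lower by the adjusted p alone, a rule that 7.28% of all genes passed as lower and 5.04% as higher. The median change was -0.26 for vesicle proteins, -0.28 for SNARE and release genes and -0.20 for endocytosis genes. The 17 other synaptotagmin and C2 domain genes had a median of 0.10, and 1 of them, *Otof*, which encodes the hair cell sensor otoferlin, was called higher (0.54, SE 0.11, edgeR adjusted p = 0.0121). With the libraries scaled to neuron markers, 0 of the 81 genes were called lower and 5 higher by edgeR. On that scale 0.265% of all genes were called lower and 22.1% higher.

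At P7 the 2 sets of libraries gave opposite signs for 7 of the 9 genes tested in both. The paper describes 2 P7 batches, of 4 and 3 samples per genotype, and its main axis of variation followed dissection batch and run. Those sizes match replicates 1 to 4 and 5 to 7, though the labels name no batch. Batch and units therefore cannot be told apart between these sets. In replicates 5 to 7, 0 of the 10 genes were called by edgeR, as were 0 of 16026 genes in all (0% called; 763 genes had an unadjusted p under 0.05, and DESeq2 called 47 higher and 4 lower, none of them among the 10). Het and Homo libraries overlapped for all 10 genes in that set; over all genes, 4.64% lay lower and 5.76% higher in Homo without overlap. In replicates 1 to 4, where *Syt9* was under the minimum mean of 5 TPM, 1 of the 9 genes tested was called higher in Homo libraries (*Syt2*), beside shares of 0.673% (higher) and 0.153% (lower) among 11740 genes.

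In replicates 5 to 7, *Sv2c* had 6.94, 14.8 and 11.9 CPM in Het libraries 5, 6 and 7 and 5.52, 6.26 and 7.29 CPM in Homo libraries. The lowest Het library fell within the Homo range, and the log2 fold change was -0.82 (SE 0.27, edgeR adjusted p = 0.894). *Syt2* had 19.8, 50.1 and 29.8 CPM in Het and 17.1, 16.9 and 24.7 CPM in Homo libraries (log2 fold change -0.77, SE 0.33, edgeR adjusted p = 0.894). Het replicate 6 was the highest of the 6 libraries for both, and its neuron markers summed to 2980 CPM beside 1398 to 2061 CPM in the other libraries.

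Without that library the change in replicates 5 to 7 was -0.56 for *Sv2c*, -0.34 for *Syt2*, -0.22 for *Syt7*, -0.12 for *Syt3* and *Sv2b*, -0.03 for *Sv2a* and 0.02 for *Syt11*. With all libraries it was -0.64 for *Syt7*, -0.48 for *Syt3*, -0.46 for *Sv2b*, -0.34 for *Sv2a* and -0.19 for *Syt11*, so a single control pool held much of the size of these differences and, for *Syt11*, the sign.

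*Syt1* ran against this pattern. It had 108, 89.6 and 101 CPM in Het libraries 5, 6 and 7 and 79.5, 129 and 106 CPM in Homo libraries, so that Het replicate 6 was the lowest control and the genotypes overlapped fully (log2 fold change 0.08, SE 0.17, edgeR adjusted p = 0.949). *Syt9* differed by 0.00 (SE 0.15) and *Syt4* by 0.17 (SE 0.30).

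**Figure D2:**
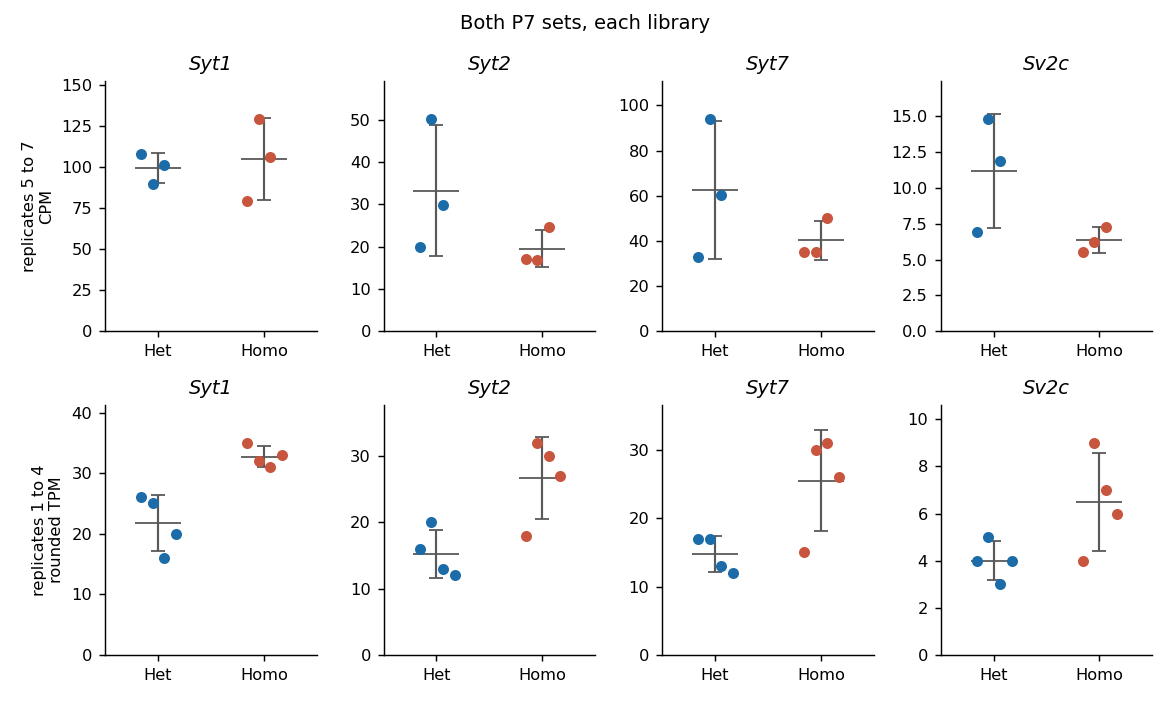
*Syt1*, *Syt2*, *Syt7* and *Sv2c* in each P7 library, in CPM for replicates 5 to 7 (top) and in rounded TPM for replicates 1 to 4 (bottom), linear axes from 0, Het in blue and Homo in red, with mean and SD (n = 3 and n = 4). In the lower row *Syt1* lies at 16 to 26 TPM in Het and 31 to 35 TPM in Homo libraries, and for the other genes Homo replicate 1 is the lowest Homo library.

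In replicates 1 to 4, *Syt2* had 16, 20, 13 and 12 TPM in Het libraries 1 to 4 and 18, 32, 30 and 27 TPM in Homo libraries. Homo replicate 1 fell within the Het range, and the log2 fold change on the log2(TPM + 1) scale was 0.66 (SE 0.17, limma adjusted p = 0.0473). The call of *Syt2* was lost without any single library other than Homo replicate 1, with adjusted p values (limma) between 0.0554 and 0.132, and was also lost when genes with low values were kept (limma adjusted p = 0.0742) or libraries were scaled to neuron markers (0.45, limma adjusted p = 0.1155). Without Homo replicate 1, 4 of the genes were called higher: *Syt2* (0.82), *Syt7* (0.82), *Sv2a* (0.73) and *Sv2c* (0.63). In that fit 2.26% of 11727 genes were called higher.

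*Syt1* was the only one of the 10 genes whose genotypes did not overlap in replicates 1 to 4, at 26, 25, 16 and 20 TPM in Het and 35, 32, 31 and 33 TPM in Homo libraries. All Homo libraries lay above all Het libraries for 12.2% of the genes tested and below them for 2.62%. Overlap in this set was read from the deposited TPM without TMM scaling, unlike the fold changes. Without TMM the median change over all genes was 0.12, so the Homo values as deposited tended to be higher. The log2 fold change of *Syt1* was 0.49 (SE 0.11), just under the fold limit, with a limma adjusted p = 0.0446. The 14 neuron markers summed to 1861 to 2989 TPM in Het and 2456 to 3335 TPM in Homo libraries of this set, and the central glia markers to 696 to 938 and 699 to 786 TPM; their part in the result was not tested. The other genes had positive changes from 0.01 (*Syt4*) to 0.61 (*Syt7*), and the median of the 9 was 0.46 beside 0.01 for all genes.

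**Figure D3:**
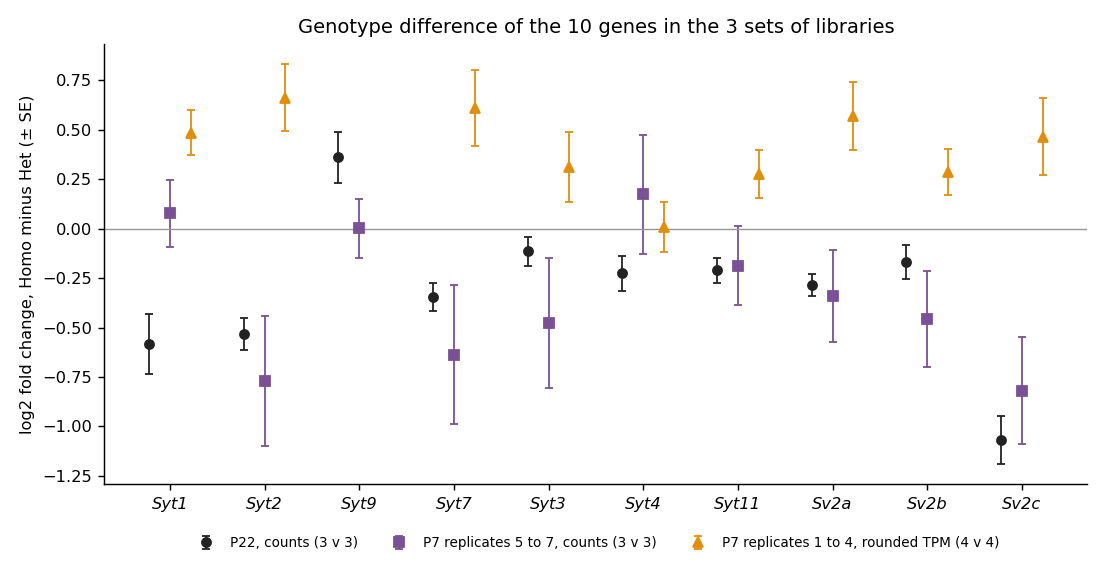
Log2 fold change (Homo minus Het) of each gene with its standard error, at P22 (black circles), P7 replicates 5 to 7 (purple squares) and P7 replicates 1 to 4 (orange triangles, where *Syt9* was not tested). Every orange triangle is above 0, while *Sv2c*, *Syt2*, *Syt7* and *Sv2a* lie below 0 in both sets of counts.

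The difference between the genotype effects at P22 and in P7 replicates 5 to 7 was tested in a fit of the 12 libraries in counts. It was called for 0 of the 10 genes, where 0.0306% of 16314 genes were called by edgeR (1666 genes had an unadjusted p under 0.05, and DESeq2 called 33 higher and 90 lower, none of them among the 10). *Syt1* had the largest interaction of the 10, at -0.65 (SE 0.24, unadjusted p = 0.0188, edgeR adjusted p = 0.373). For *Sv2c* the interaction was -0.23 (SE 0.32) and for *Syt2* 0.25 (SE 0.37).

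Between P7 and P22 most of the 10 genes rose, while *Syt1* fell. Age, sequencing run and table cannot be told apart here, since each age was deposited as its own table. In Het libraries 8 of the 10 genes were called higher at P22 and 1 lower, where 24.7% of 16314 genes were called higher and 26.8% lower. In Homo libraries 9 were called higher and 1 lower, beside 24.2% and 25% of all genes.

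**Figure D4:**
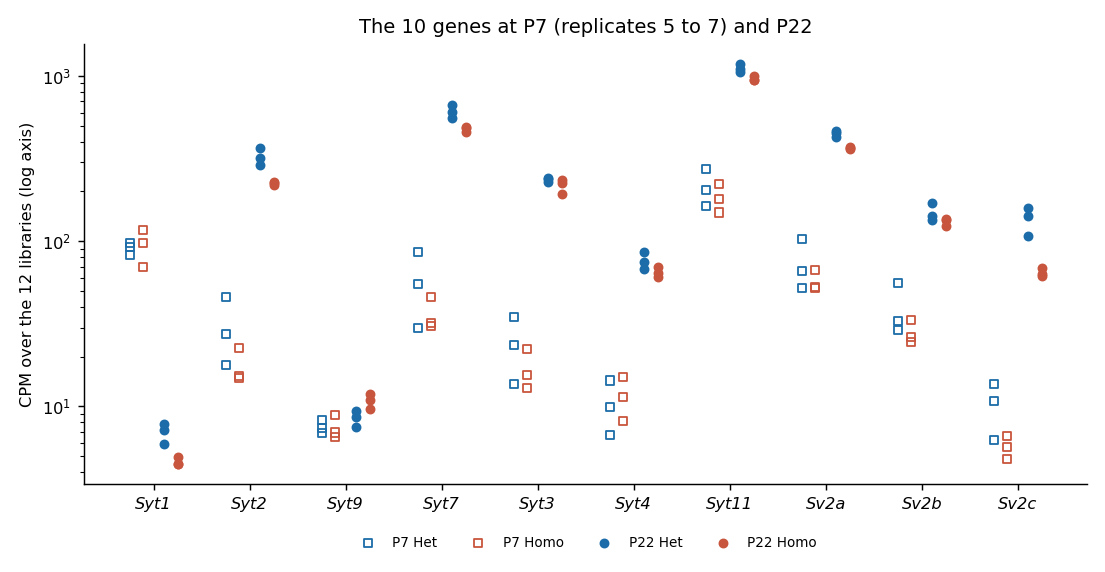
Level of the 10 genes (CPM over 12 libraries, log axis) at P7 (replicates 5 to 7, open squares) and P22 (filled circles), 1 mark per library, Het in blue and Homo in red. *Syt1* drops from 69.4 to 117 CPM to 4.47 to 7.86 CPM, *Syt9* stays between 6.50 and 11.9 CPM, and the other genes sit higher at P22.

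*Syt1* was the gene that fell. On the common scale of the 12 libraries it had 97.5, 82.2 and 92.5 CPM in P7 Het libraries and 7.86, 5.91 and 7.19 CPM in P22 Het libraries. The ages were far apart, with a log2 fold change (P22 minus P7) of -3.70 (SE 0.17, edgeR adjusted p = 4.07e-09) in Het and -4.35 in Homo libraries. *Syt2* went the other way, from 17.9, 46.0 and 27.3 CPM in P7 Het libraries to 319, 289 and 369 CPM in P22 Het libraries (log2 fold change 3.41, SE 0.26, edgeR adjusted p = 2.60e-07).

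*Syt7* rose by 3.41 and *Syt3* by 3.30 on the log2 scale in Het libraries, while *Syt4* rose by 2.88 and *Syt11* by 2.39. Among SV2 genes the order of the rise was *Sv2c* (3.72, SE 0.22), *Sv2a* (2.60, SE 0.19) and *Sv2b* (1.92, SE 0.20), each with an edgeR adjusted p under the threshold. *Sv2c* had 6.28, 13.6 and 10.8 CPM in P7 Het libraries and 142, 107 and 160 CPM in P22 Het libraries. *Syt9* was called in Homo libraries alone (0.55, edgeR adjusted p = 0.00443), and in Het libraries its value was 0.17 (SE 0.14, edgeR adjusted p = 0.306); the interaction of *Syt9* did not pass (0.38, SE 0.20, edgeR adjusted p = 0.550).

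Neuron markers rose with age as well. Of the 14, 13 were called higher at P22 in Het libraries with a median of 2.18 over the list, and their sum went from 1220 to 2736 CPM at P7 to 7850 to 11178 CPM at P22. The exception, named after its value was seen, was *Gap43*, a protein of growing axons (-3.15, SE 0.21, edgeR adjusted p = 4.99e-08). Of 11 brain neuron markers tested, 3 were called lower and 1 higher, with a median of -1.08; their sum was 202 to 262 CPM at P7 and 205 to 238 CPM at P22. Of 13 hair cell markers 9 were called lower and 1 higher (median -0.77), and their sum was 594 to 899 CPM at P7 and 452 to 637 CPM at P22. Of 10 Schwann cell markers 5 were called higher and 1 lower (median 0.67), with sums of 5422 to 16005 and 20824 to 25685 CPM. Of 10 central glia markers 3 were called higher and 4 lower (median -0.52), with sums of 1008 to 1395 and 1012 to 1988 CPM. The part of these markers in the age results was not tested.

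Scaled to the neuron markers, the median over all genes between the ages moved to -2.62, and values are best read against it (182 genes, or 1.12%, called higher and 13619, or 83.5%, lower by edgeR, in place of 4036 and 4371). On this scale *Syt1* fell by 6.30, *Syt9* by 2.36 and *Sv2b* by 0.53 on the log2 scale, and all 3 were called lower. *Sv2c* (1.26), *Syt2* (1.00), *Syt7* (1.00) and *Syt3* (0.87) were still called higher, and *Syt4* (0.43), *Sv2a* (0.14) and *Syt11* (-0.10) were not called.

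Ratios within libraries gave the shifts between related genes without any scaling, but in bulk tissue they also depend on the mix of cells. The part of that mix in the ratios was not tested. The log2 ratio of *Syt2* to *Syt1* was -2.05 ± 0.71 at P7 and 5.56 ± 0.13 at P22 (SD, n = 6 libraries at each age, both genotypes), a difference of 7.61. *Syt2* made up 11.5% to 35.9% of the counts of the pair in the P7 libraries in counts and 97.6% to 98.1% at P22. In the P7 libraries in rounded TPM, which is per length, the share of *Syt2* was 34.0% to 50%. The share at P7 therefore differed between the sets, whose units also differ. The ratio of *Syt7* to *Syt1* differed by 7.65 and that of *Syt9* to *Syt1* by 4.37. Each of these 3 ratios was separated completely between ages (exact 2-sided permutation test, p = 0.00216, the smallest that 6 against 6 allow, and adjusted p = 0.00260 over 6 ratios).

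**Figure D5:**
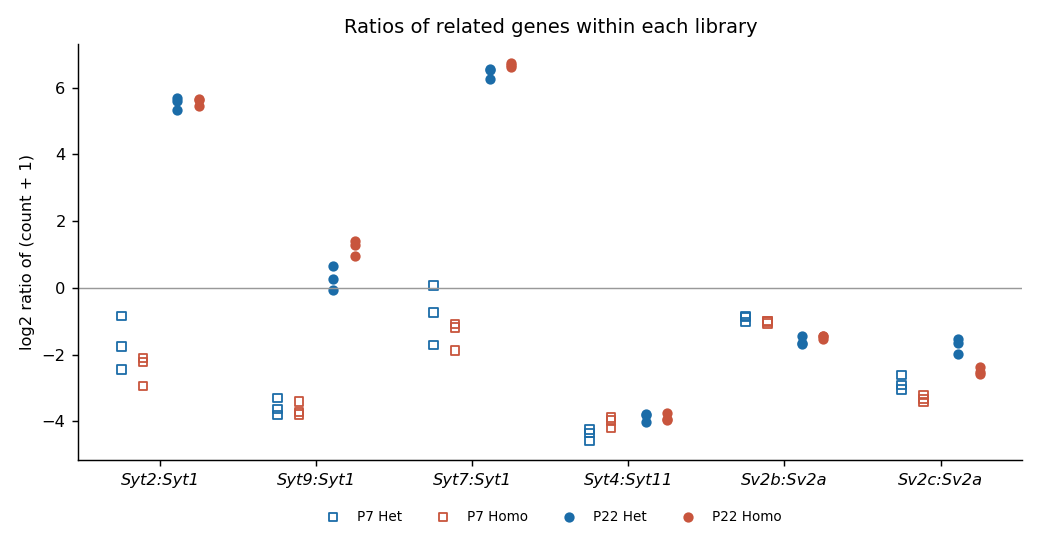
Log2 ratio of (count + 1) of related genes in each library at P7 (replicates 5 to 7, open squares) and P22 (filled circles), Het in blue and Homo in red; the line marks equal counts. The ratio of *Syt2* to *Syt1* lies between -2.94 and -0.84 at P7 and between 5.34 and 5.67 at P22.

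Within the SV2 family the shifts were smaller and ran both ways. The log2 ratio of *Sv2b* to *Sv2a* was -0.97 ± 0.09 at P7 and -1.54 ± 0.11 at P22, a difference of -0.56. That of *Sv2c* to *Sv2a* was -3.09 ± 0.30 at P7 and -2.12 ± 0.45 at P22, a difference of 0.97. Both were separated between ages (exact permutation test, p = 0.00216, adjusted p = 0.00260; SD, n = 6). The ratio of *Syt4* to *Syt11* differed by 0.33 with overlap (exact permutation p = 0.0173, adjusted p = 0.0173).

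The 6 ratios were also compared between genotypes at P7. For *Sv2c* to *Sv2a* in P7 replicates 5 to 7 the log2 ratio was -2.86 ± 0.23 in Het and -3.32 ± 0.11 in Homo libraries, without overlap (difference -0.46, exact permutation p = 0.1, the smallest possible with n = 3 each, and adjusted p = 0.3). The ratio of *Syt4* to *Syt11* did not overlap there either, at -4.40 ± 0.18 in Het and -4.02 ± 0.16 in Homo libraries (difference 0.38, exact permutation p = 0.1, adjusted p = 0.3, n = 3 each), and the other 4 ratios overlapped. In P7 replicates 1 to 4 all 6 ratios overlapped, with a difference of -0.12 for *Sv2c* to *Sv2a* (exact permutation p = 0.457, where 4 against 4 cannot go below 0.0286) and of -0.27 for *Syt4* to *Syt11* (exact permutation p = 0.171).

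Levels of different genes can be compared only per length of transcript. Per kilobase of the longest annotated coding transcript, the order in P22 Het libraries began with *Syt11* (200 ± 11.3 CPM per kb, SD, n = 3), *Sv2a* (93.1 ± 4.62), *Syt7* (82.8 ± 7.64), *Syt3* (81.2 ± 2.73) and *Syt2* (42.7 ± 5.37). It went on with *Sv2b* (24.2 ± 3.19), *Syt4* (17.7 ± 2.05), *Sv2c* (13.5 ± 2.68), *Syt9* (2.01 ± 0.22) and *Syt1* (1.31 ± 0.19). Neighbours in this order whose libraries overlapped were *Sv2a* and *Syt7*, *Syt7* and *Syt3*, and *Syt4* and *Sv2c*. The order depends on the length taken: per kilobase of all annotated exon bases *Sv2b* (16.0 ± 2.10) came after *Syt4* (17.7 ± 2.05) and overlapped it and *Sv2c*, *Syt7* no longer overlapped *Sv2a*, and *Syt1* was at 0.756 ± 0.11, still last.

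At P7 the deposited TPM, which is already per length, put *Syt1* (21.8 ± 4.65 TPM in Het, SD, n = 4) below *Syt11* (86.3 ± 17.9) and *Sv2a* (33.0 ± 8.25) and close to *Syt3* (20.8 ± 3.86). Next came *Sv2b* (16.3 ± 3.77), *Syt2* (15.3 ± 3.59), *Syt7* (14.8 ± 2.63) and *Syt4* (10.8 ± 1.5), and *Syt9* (4.25 ± 0.50) and *Sv2c* (4.00 ± 0.82) were lowest. In Het libraries of P7 replicates 5 to 7, per kilobase of the longest coding transcript as at P22, *Syt1* (20.6 ± 1.92 CPM per kb, SD, n = 3) came after *Syt11* (46.3 ± 11.7) and overlapped *Sv2a* (18.6 ± 6.40). Per kilobase of all exon bases it came after *Sv2a* as well, at 11.9 ± 1.11 beside 17.4 ± 5.98 for *Sv2a*, with overlap.

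Of the 21 SNARE and release genes tested between ages in Het libraries, 15 were called higher and 4 lower, the 4 being *Cadps2*, *Stx1a*, *Cplx2* and *Unc13b* (named after their values were seen). *Stx1a*, a plasma membrane SNARE, fell by 2.08 on the log2 scale (SE 0.18, edgeR adjusted p = 3.96e-07). Of 24 other vesicle proteins 14 were called higher and 2 lower, and of 20 endocytosis genes 14 were called higher and 2 lower. The medians were 1.95 for SNARE and release genes, 1.94 for vesicle proteins and 1.39 for endocytosis genes, beside 2.74 for the 10 genes and -0.06 for all genes.

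The genes whose log2 CPM followed each other most closely over the 12 libraries, 6 per age, are given as a description, since age dominates the spread and the libraries share it. For *Syt1* they were *Adamts2* (Pearson r = 0.997), *Fam19a3* (0.996) and *Cdh6* (0.996), which were high at P7 and low at P22. For *Syt2* they were *Frmpd4*, *Sgpp2* and *Mapk8ip2* (each r = 0.999), for *Sv2a* *Mapk10*, *Mapk8ip2* and *Nmnat2* (each r = 0.999), and those for *Syt11* included *St8sia5* and *Map7d2* (each r = 0.999). For *Sv2c* they were *Icmt* (0.998), *Prkar1a* (0.997) and *Fitm2* (0.997).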

How the data were processed

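Poly A RNA from 20 pools of cochlear tissue was sequenced in pairs of reads. The methods give pools of 4 mice, and the supplementary legends 3 to 4. Per the labels and the methods, the authors mapped reads to mm10 with STAR in the nf-core RNA pipeline and estimated counts per gene with Salmon. The strand setting and annotation release are not given in the sources used here. For P22 and P7 replicates 5 to 7 the authors deposited expected counts, that is estimated counts per gene with no normalization. For P7 replicates 1 to 4 the deposited values are treated as a score, whole numbers that sum to 999644 to 999777 per library, as rounded TPM would.

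Estimated counts were rounded, filtered (filterByExpr), scaled by TMM and tested with edgeR 4.0.16 (R 4.3.3). Rounded TPM was tested with limma 3.58.1 (trend, TMM scaling, a pseudocount of 1, a mean of at least 5), which understates changes of low genes. P-values were adjusted by Benjamini-Hochberg over all genes. Standard errors for edgeR were Wald errors from the moderated dispersion. Ratios were compared with exact permutation tests (scipy). The main edgeR and limma fits were run on simulated data, and the other steps were not.

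No value column was left unused. Per the methods the mice came from several breeding pairs, but how litters were divided among the pools is not given in the sources used here, so p-values measure the spread between pools. Beside the 10 genes and *Adgrb1*, the text names up to 4 genes of each list with the largest change among those called at P22, and the 3 genes most correlated with each of *Syt1*, *Syt2*, *Syt11*, *Sv2a* and *Sv2c*, except 2 genes that are not reported here. The 10 genes, the lists and the tests were chosen with earlier results of these data known. Alternatives covered DESeq2 1.42.0, other scalings, filters, pseudocounts, a replicate block and each library left out.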

Additional observations from a re-analysis of the deposited data

Results flagged for a closer look

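*Syt1* was flagged because its genotypes separated without overlap in opposite directions in 2 sets of libraries. A change of sign between these sets was not particular to *Syt1*, since every gene tested in both had one. The difference was larger for *Sv2c* (-1.53, SE 0.23) and *Syt2* (-1.20, SE 0.19). Its log2 fold change (Homo minus Het) was -0.58 at P22, where all Homo libraries lay below all Het libraries, and 0.49 in P7 replicates 1 to 4, where all Homo libraries lay above. The values are in counts and in rounded TPM, so the difference for *Syt1* (-1.07, SE 0.19 from both standard errors) was not tested, nor were those of the other genes. In P7 replicates 5 to 7 the genotypes overlapped for *Syt1*.

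Single libraries stood apart in 2 groups of P7 replicates 1 to 4 by Dixon's criterion, which chance passes in about 1 of 20 groups. *Sv2a* had 36 TPM in Homo replicate 1 beside 57 to 61 TPM in the other Homo libraries. *Syt9* had 5 TPM in Het replicate 4 beside 4 TPM in each of the others, a step of 1 in rounded values.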

How the results depend on the processing

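At P22, DESeq2, size factors by RLE, no filter and the replicate block each left 3 genes called. By the adjusted p alone 5 were called lower (7.28% of all genes were), by neuron marker scaling 1 higher and 1 lower, and by leaving out 1 library 1 to 3 (1 without Het replicate 3). The count of vesicle genes called lower, 2, went to 32 by the adjusted p alone, to 0 with neuron marker scaling and to 1 to 5 with 1 library left out (1 without Het replicate 3, 5 without Het replicate 2). With neuron marker scaling at P22, 22.1% of all genes were called higher and 0.265% lower. In P7 replicates 1 to 4 the count of 1 went to 2 by the adjusted p alone, 4 without TMM, and 0 with no filter, with neuron marker scaling or with the replicate block (*Syt2*, limma adjusted p = 0.117). Over all genes of that set, 79 higher and 18 lower calls became 284 and 9 without TMM, and 13 and 130 with neuron marker scaling. Leaving out 1 library there gave 0 to 4 (4 without Homo replicate 1, 1 without Het replicate 1 and 0 without any other). The gene called without Het replicate 1 was *Syt1* (0.55, limma adjusted p = 0.0386), not *Syt2*. Deviations of same-numbered libraries correlated at -0.23 to 0.069, and those of differently numbered libraries at -0.23 to 0.39. With 3 or 4 libraries per group this cannot decide whether replicate numbers paired the libraries.

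Between ages, DESeq2, RLE, no filter and each of 12 fits with 1 library left out kept 8 genes called higher and 1 lower, and in the interaction 0 were called by edgeR or DESeq2 under every alternative run. Neuron marker scaling, which moved the median of all genes from -0.06 to -2.62, took *Sv2b* from 1.92 to -0.53, *Syt11* from 2.39 to -0.10 and *Syt9* from 0.17 to -2.36, shifts close to that of the median. Ratios within 1 genotype could not pass, since 3 libraries against 3 give p = 0.1 at least in the exact permutation test. The differences were 7.22 in Het and 8.01 in Homo for *Syt2* to *Syt1*, -0.68 and -0.45 for *Sv2b* to *Sv2a*, and 1.13 and 0.82 for *Sv2c* to *Sv2a*. With a pseudocount of 10, or with 1 library left out, these 3 ratios kept their direction and stayed past the threshold. Depth limits *Syt1* and *Syt9* most at P22, and rounding to whole TPM limits *Sv2c* and *Syt9* in P7 replicates 1 to 4.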

Other observations

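The other synaptotagmin and C2 domain genes, 17 of which were tested between ages in Het libraries, ran mostly against the 10 genes: 9 were called lower at P22 and 3 higher, with a median of -1.02. The genes named here were chosen after their values were seen. *Syt6* fell by 5.07 on the log2 scale (SE 0.41, edgeR adjusted p = 8.59e-08), *Syt17* fell by 3.05 (SE 0.48, edgeR adjusted p = 6.97e-05), and *Otof* fell by 1.12. The 3 that rose were *Syt12*, *Rph3a*, a partner of Rab3, and *Esyt1*, which tethers the endoplasmic reticulum to the plasma membrane.

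Some other pairs with a common role are given here, named after their values were seen. *Cplx1* rose by 3.06 (SE 0.28, edgeR adjusted p = 1.28e-06) between P7 and P22 while *Cplx2* fell by 2.01 (SE 0.10, edgeR adjusted p = 5.41e-09). Both encode complexins, which clamp and aid SNARE assembly. *Vamp1*, a vesicle SNARE, rose by 3.49 (SE 0.23, edgeR adjusted p = 7.61e-08), while its relative *Vamp2* differed by -0.04 (SE 0.07, edgeR adjusted p = 0.645). Age, run and table cannot be told apart for these genes either.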
